A study of Mus musculus with 20 samples.

Results

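The genes described here are Ly6a, Ly6c1, Ly6c2 and Ly6e of the Ly6 family together with Thy1, 5 genes whose products are held on the outer face of the cell membrane by a glycosylphosphatidylinositol (GPI) lipid anchor. They were taken by name from a table of 49671 mouse genes, and all 5 were among the 13290 genes that passed the filter on low counts and were tested. Their levels were followed across CD8 and CD4 T cells kept in IL-7 and IL-15 for a short or a long time. Ly6c1 and Ly6c2 have much of their sequence in common.

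Ly6 proteins are small surface proteins that fold into a three-finger domain. Ly6a encodes Sca-1, used to sort blood stem cells and, in T cells, as a sign of activation and of stem-like memory, and its transcription is induced by interferons. Ly6c1 and Ly6c2 encode the Ly-6C antigen carried by memory CD8 T cells and by one class of monocytes. Ly6e encodes another interferon-inducible member, known for restricting coronavirus entry. Thy1 encodes CD90, an immunoglobulin-domain protein and the classical surface marker of mouse T cells.

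RNA came from 4 groups of 5 libraries. In all of them, T cells of spleen and inguinal nodes were stimulated on plates with antibodies to CD3 and CD28 plus 1 ng/mL IL-2, then grown in 10 ng/mL IL-7 with 50 ng/mL IL-15. The long-term groups were CD8 cells at week 4 (25 days in these cytokines) and CD4 cells at week 3 (18 days), and the short-term groups were CD8 and CD4 cells at week 1 (4 days). Stimulation lasted 72 h for polyclonal cells of albino B6 mice and 24 h for receptor-transgenic cells of Marilyn-BLITC and MataHari-BLITC mice, and the labels do not say which library came from which. All cells were sorted as CD44+CD62L+ to above 97% before RNA extraction, so the libraries describe the sorted fraction and not the whole culture. The labels name no animal or culture, and p-values therefore reflect only differences among libraries, which may be technical.

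Libraries held 13.26 to 28.34 M counted reads. The labelled cell types were checked first. Cd8b1 averaged 728 ± 316.8 CPM (counts per M counted reads) in CD8 week 4 libraries and 551.2 ± 118.8 CPM in CD8 week 1 libraries (SD, n = 5 each), against 5.33 ± 4.85 CPM in CD4 week 3 libraries and 5.62 ± 1.93 CPM in CD4 week 1 libraries. Cd8a averaged 4.77 ± 7.21 CPM in CD4 week 3 and 0.726 ± 0.843 CPM in CD4 week 1 libraries. Summed, both genes ran from 1.6 to 30.66 CPM at CD4 week 3 and from 4.12 to 10.1 CPM at CD4 week 1. In CD8 libraries the sum was at least 988.4 CPM. With edgeR 1 of these 2 genes was called higher at CD4 week 3 than at CD4 week 1, and limma-voom called 0. The part of this signal in the Ly6c2 values of CD4 libraries was not tested. Cd4 was at 0 in all CD8 week 4 libraries and averaged 0.269 ± 0.195 CPM in CD8 week 1 libraries, against 624 ± 150.1 CPM in CD4 week 3 libraries and 732.3 ± 126.8 CPM in CD4 week 1 libraries. CD8 libraries fall into 2 ranges of title numbers, with 3 libraries of each CD8 group in the lower range and 2 in the higher one, and CD4 libraries have a range of their own. Cell type and title range therefore cannot be told apart, and in bulk RNA fewer cells of a kind and less RNA per cell cannot be told apart either.

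The coding sequences of Ly6c1 and Ly6c2 are shown because the values of these genes below turn on counting them separately. Ly6c1 lies on the minus strand at chr15:75044018-75048830 and Ly6c2 on the minus strand at chr15:75108158-75111970 (GRCm38). Shown are the first 300 exonic coding bases of the first annotated transcript in GENCODE M21, read 5′ to 3′, with the bases that differ between the genes in capitals.
Ly6c1 coding: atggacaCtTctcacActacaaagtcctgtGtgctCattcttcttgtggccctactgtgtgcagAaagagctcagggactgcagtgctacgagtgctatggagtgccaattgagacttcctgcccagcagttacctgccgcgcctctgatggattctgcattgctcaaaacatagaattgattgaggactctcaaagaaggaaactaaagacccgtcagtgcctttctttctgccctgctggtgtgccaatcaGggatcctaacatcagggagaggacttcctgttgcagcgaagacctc
Ly6c2 coding: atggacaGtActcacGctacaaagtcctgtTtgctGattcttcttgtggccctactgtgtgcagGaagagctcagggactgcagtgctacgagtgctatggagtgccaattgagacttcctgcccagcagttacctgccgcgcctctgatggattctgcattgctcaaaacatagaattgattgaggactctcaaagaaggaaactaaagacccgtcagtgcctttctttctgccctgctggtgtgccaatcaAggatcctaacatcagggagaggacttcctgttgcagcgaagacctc
The full coding sequences are 396 bases long each and differ at 9 bases, 7 of them in the stretch shown, which makes them 97.7% identical. The longest run without a difference is 188 bases. Over the whole transcripts, UTRs included, identity was 95%.

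Reads that fit several genes were not counted, so the share of unique sequence bears on these counts. Of all stretches of 75 bases in the transcript, 23.2% of Ly6c1 and 21.9% of Ly6c2 were also found in the transcripts of another gene. At 50 bases the shares were 36.7% for Ly6c1 and 33% for Ly6c2, and at 100 bases they were 15.3% for Ly6c1 and 15.8% for Ly6c2. Most of either transcript was therefore distinct at these lengths. The read length is not given in the sources used here. Ly6a lies on the minus strand at chr15:74994877-74998031, and 8.05% of its 50-base stretches and 0.805% of its 75-base stretches occurred elsewhere. Ly6e, on the plus strand at chr15:74955051-74959905, and Thy1, on the plus strand at chr9:44043384-44048579, shared no stretch of any of these lengths. Ly6a is more distant in sequence, its coding bases being 82% identical to those of Ly6c1.

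Promoters of Ly6c1 and Ly6c2 are shown because their levels differed most between cell types in opposite directions. The promoter set used held no entry for Ly6a, Ly6e or Thy1, so their promoters were not searched for motifs. The sequences are the 250 bases before one annotated start of each gene, on the minus strand at chr15:75048838-75049087 for Ly6c1 and chr15:75111972-75112221 for Ly6c2 (RefSeq, GRCm38.p6), with motif matches in capitals.
Ly6c1 promoter: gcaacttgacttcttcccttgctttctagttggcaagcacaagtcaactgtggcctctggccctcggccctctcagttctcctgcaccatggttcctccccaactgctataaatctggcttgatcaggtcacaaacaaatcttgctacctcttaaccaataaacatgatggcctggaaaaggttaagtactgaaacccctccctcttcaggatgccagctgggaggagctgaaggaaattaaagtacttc
Ly6c2 promoter: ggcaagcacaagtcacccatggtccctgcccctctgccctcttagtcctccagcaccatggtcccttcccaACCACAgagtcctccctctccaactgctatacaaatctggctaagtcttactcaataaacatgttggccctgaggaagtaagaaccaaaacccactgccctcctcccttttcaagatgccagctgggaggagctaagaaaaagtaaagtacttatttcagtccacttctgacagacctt
The capitals mark a RUNX word (TGTGGT, here on the opposite strand) at position -179 from the Ly6c2 start, and none was found in the Ly6c1 window. That word occurred on either strand in 16.8% of 32851 promoter windows of 250 bases before and 50 after a start. No match was found in either window for the interferon-stimulated response element, found in 3.44% of all windows, or for the STAT word TTCNNNGAA, found in 8.3%. The TCF word CTTTGAA, in 5.14% of all windows, was not found either. Aligned over the whole windows, the promoters were identical at 208 of 334 columns (62.3%), with 58 mismatches and 68 gapped columns. Each gene had 2 annotated starts, and the pair with the highest identity is shown. Other pairings of starts gave 50.5, 46 and 38.2%. The coding alignment had no gaps, so its percentage is not directly comparable. These are matches of letters only.

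**Figure D1:**
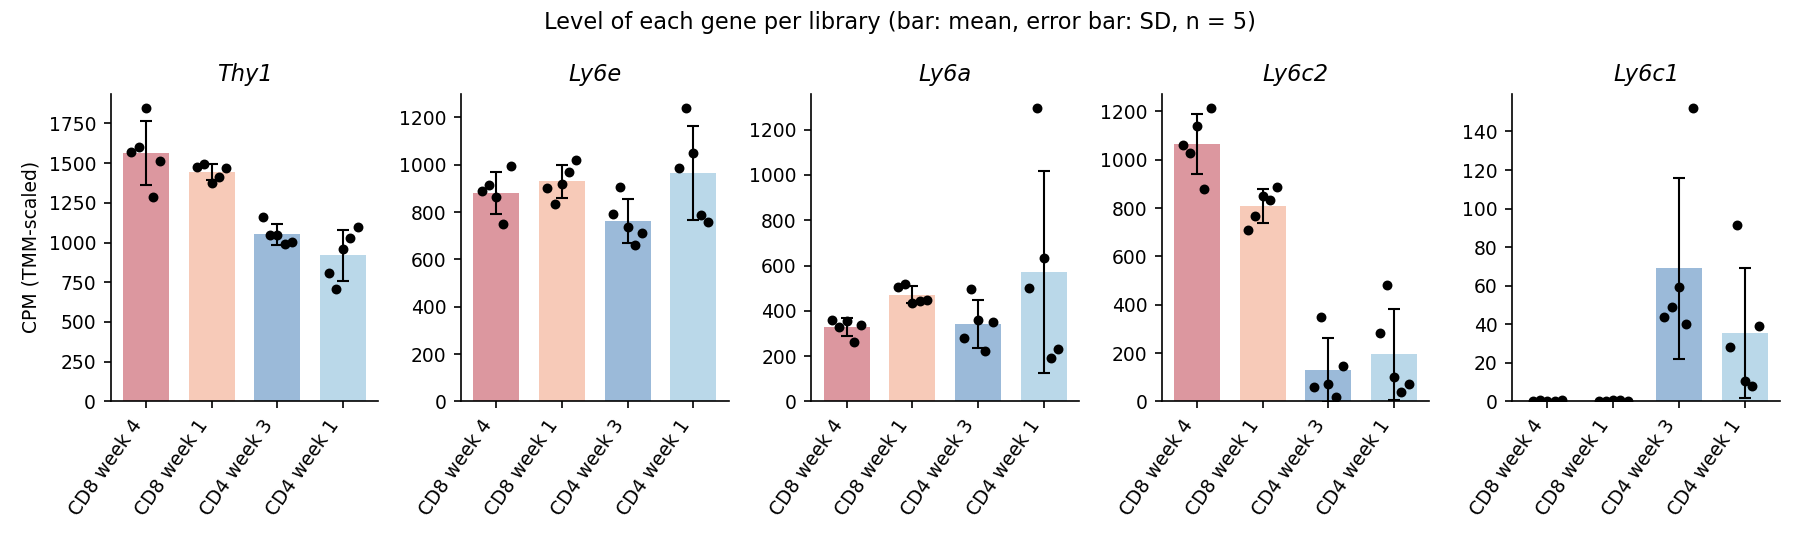
Level of Thy1, Ly6e, Ly6a, Ly6c2 and Ly6c1 in each of 20 libraries, in CPM on an axis of its own from 0 for each gene. Bars are group means, error bars the SD and points single libraries (n = 5 per group). Ly6c1 stays at or below 0.530 CPM in CD8 libraries, and CD4 libraries scatter more than CD8 libraries for Ly6a and Ly6c2.

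Per kilobase of exon, Thy1 had the highest mean level of the 5 genes in CD8 week 4 cells, at 521.8 ± 67.02 CPM per kb, followed by Ly6c2 at 388.6 ± 45.87, Ly6a at 272.5 ± 32.83, Ly6e at 233 ± 23.42 and Ly6c1 at 0.259 ± 0.0365 CPM per kb (SD, n = 5). The place of Ly6c2 depends on the length used. The merged exons of Ly6c2 span 2740 bases, against 822 for its first annotated transcript, and with first transcripts Ly6c2 came to 1295 ± 152.9 and Thy1 to 900.8 ± 115.7 CPM per kb in the same libraries. In CD4 week 3 cells Thy1 was at 351 ± 22.48, Ly6a at 283.7 ± 86.31, Ly6e at 201.2 ± 24.54, Ly6c2 at 46.92 ± 48.3 and Ly6c1 at 41.1 ± 28.04 CPM per kb over merged exons. Below, levels are CPM without length, and each gene is compared with itself only.

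CD8 and CD4 cells were compared at week 1 to ask which of these genes mark the cell type early in culture. Thy1 and Ly6c2 were higher in CD8 cells and Ly6c1 was lower, by about 1.57-, 4.16- and 103-fold, while Ly6a and Ly6e did not pass the test. Without CD4 week 1 replicate 2 the log2 fold change of Ly6c2 was 2.72 in place of 2.06 and that of Ly6c1 -5.96 in place of -6.68, and both still passed. Of all tested genes 38.1% passed in this comparison (19.1% higher and 19% lower in CD8), and the count of 3 of 5 is read against that share. All 3 also had no overlap between CD8 and CD4 libraries, which held for 23.7% of all genes.

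Thy1 stood at 1477, 1495, 1376, 1411 and 1472 CPM in CD8 week 1 libraries, against 807, 709.7, 956.7, 1027 and 1100 CPM in CD4 week 1 libraries. All CD8 libraries were above all CD4 libraries, and the CD8 libraries lay close together, with a coefficient of variation of 3.49% against 17.4% in CD4. The log2 fold change was 0.65 with a standard error (SE) of 0.106 (adjusted p = 0.000126, edgeR's quasi-likelihood test with Benjamini-Hochberg adjustment over all genes, as for every adjusted p below unless another test is named).

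Ly6c2 stood at 707.6, 765.3, 851.1, 832.4 and 887.6 CPM in CD8 week 1 libraries, against 283.6, 481.7, 99.23, 37 and 70.68 CPM in CD4 week 1 libraries. The CD4 libraries differed widely among themselves, yet the highest CD4 library was below the lowest CD8 library. The log2 fold change was 2.06 (SE 0.642, adjusted p = 0.0168). With the CD8 libraries of only one title range and all CD4 libraries, the log2 fold change was 1.99 for the lower range and 2.15 for the higher range, and adjusted p was 0.0752 and 0.0988.

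Ly6c1 was nearly silent in CD8 cells. It stood at 0.207, 0.119, 0.469, 0.530 and 0.301 CPM in CD8 week 1 libraries, which are 4, 2, 8, 15 and 4 reads, against 28.16, 91.43, 10.74, 7.98 and 39.32 CPM in CD4 week 1 libraries. Every CD4 library was above every CD8 library. The log2 fold change was -6.68 (SE 0.711, adjusted p = 1.48e-06). A count of 3 reads corresponds to between 0.107 and 0.226 CPM in single CD8 week 1 libraries, so individual values there carry a large counting error.

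Ly6a and Ly6e gave no call between the cell types at week 1. Ly6a had a log2 fold change of -0.28 (SE 0.357, adjusted p = 0.565) and Ly6e one of -0.05 (SE 0.12, adjusted p = 0.759). Both signs turned without CD4 week 1 replicate 2, to 0.27 for Ly6a and 0.05 for Ly6e.

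The same comparison after long-term culture set CD8 week 4 against CD4 week 3 cells, which also differ in days of culture. Again Thy1 and Ly6c2 were higher in CD8 cells, by about 1.49- and 8.28-fold, and Ly6c1 was lower by about 157-fold. Of all tested genes 32.7% passed (17.7% higher and 15% lower), and 20.6% had libraries without overlap, as these 3 genes did.

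Ly6c2 stood at 1061, 1029, 1140, 879.8 and 1213 CPM in CD8 week 4 libraries, against 58.17, 350.6, 71.27, 17.8 and 145 CPM in CD4 week 3 libraries. CD4 week 3 replicate 2 had the most Ly6c2 of its group and was still far below every CD8 library. The log2 fold change was 3.05 (SE 0.667, adjusted p = 0.00184), and without that library it was 3.86 (adjusted p = 0.000183).

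Ly6c1 stood at 0.393, 0.450, 0.362, 0.442 and 0.522 CPM in CD8 week 4 libraries, against 43.84, 49.13, 59.25, 40.34 and 152.1 CPM in CD4 week 3 libraries. The groups were far apart, with 7 to 12 reads per CD8 library and 886 to 3600 per CD4 library. The log2 fold change was -7.29 (SE 0.699, adjusted p = 3.7e-07).

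Thy1 stood at 1567, 1600, 1846, 1285 and 1516 CPM in CD8 week 4 libraries, against 1162, 1049, 1050, 993.6 and 1002 CPM in CD4 week 3 libraries. The lowest CD8 library was above the highest CD4 library. The log2 fold change was 0.57 (SE 0.106, adjusted p = 0.00044). With the CD8 libraries of the higher title range alone it was 0.42 (adjusted p = 0.0777). Ly6e and Ly6a did not pass, with log2 fold changes of 0.21 (SE 0.12, adjusted p = 0.186) and -0.06 (SE 0.357, adjusted p = 0.915).

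**Figure D2:**
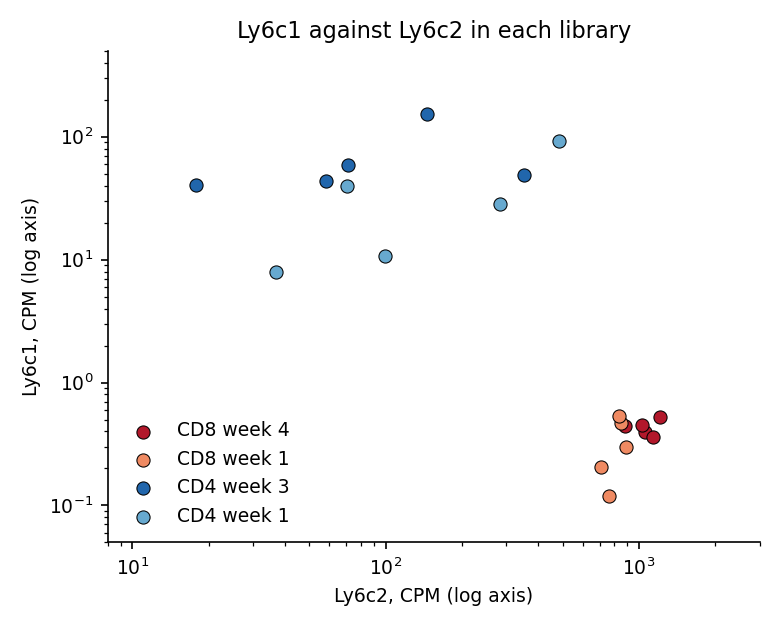
Ly6c1 against Ly6c2 in CPM, both on log axes, with 1 point per library and colours for the 4 groups. CD8 libraries gather at 707.6 to 1213 CPM of Ly6c2 with under 1 CPM of Ly6c1, while CD4 libraries spread along both axes.

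Summed as one gene, Ly6c1 and Ly6c2 were higher in CD8 cells at week 1 (log2 fold change 1.81, adjusted p = 0.0129) and after long-term culture (2.43, adjusted p = 0.0025), the direction of Ly6c2 and not of Ly6c1. The division of reads between Ly6c1 and Ly6c2 was taken as a measure of its own, the share of Ly6c2 in the sum of both counts per library. In CD8 cells practically all counts were Ly6c2, 99.96 ± 0.00703% at week 4 and 99.96 ± 0.0196% at week 1 (SD, n = 5 each). In CD4 cells the share was 55.75 ± 20.64% at week 3 and 82.35 ± 10.8% at week 1. With counts divided by exon length the CD4 shares were 45.34 ± 22.13% at week 3 and 74.73 ± 13.56% at week 1. Which gene held the larger part at CD4 week 3 therefore depends on the length used. Ly6c1 made up 0.0156 to 0.0636% of both counts in CD8 libraries, and whether these few reads came from Ly6c1 transcripts was not tested.

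Single CD4 week 3 libraries had Ly6c2 shares of 57.02, 87.71, 54.61, 30.62 and 48.81%, against 90.97, 84.05, 90.23, 82.26 and 64.26% in CD4 week 1 libraries. Replicate 2 of week 3 lay within the week 1 range, and the other 4 week 3 libraries lay below all week 1 libraries. The exact 95% binomial interval of the lowest, 30.62%, ran from 28.1 to 33.23%, so counting error, the only error it covers, is small beside the spread between libraries. The mean was lower by 26.6 percentage points at week 3 (two-sided exact permutation test, p = 0.0317, adjusted over 4 comparisons p = 0.0423). This call is not firm: as a log2 ratio of counts the difference was -1.95 (exact permutation, adjusted p = 0.0635), and without any one of 9 of the 10 CD4 libraries adjusted p was 0.0635 or 0.0847, CD4 week 3 replicate 2 being the exception.

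CD8 cells had a higher Ly6c2 share than CD4 cells by 17.61 percentage points at week 1 and by 44.21 points after long-term culture (exact permutation, adjusted p = 0.0159 for each, from p = 0.00794, the smallest that 5 against 5 libraries allow). Between CD8 week 4 and CD8 week 1 cells the share differed by -0.00166 points (exact permutation, adjusted p = 0.865).

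**Figure D3:**
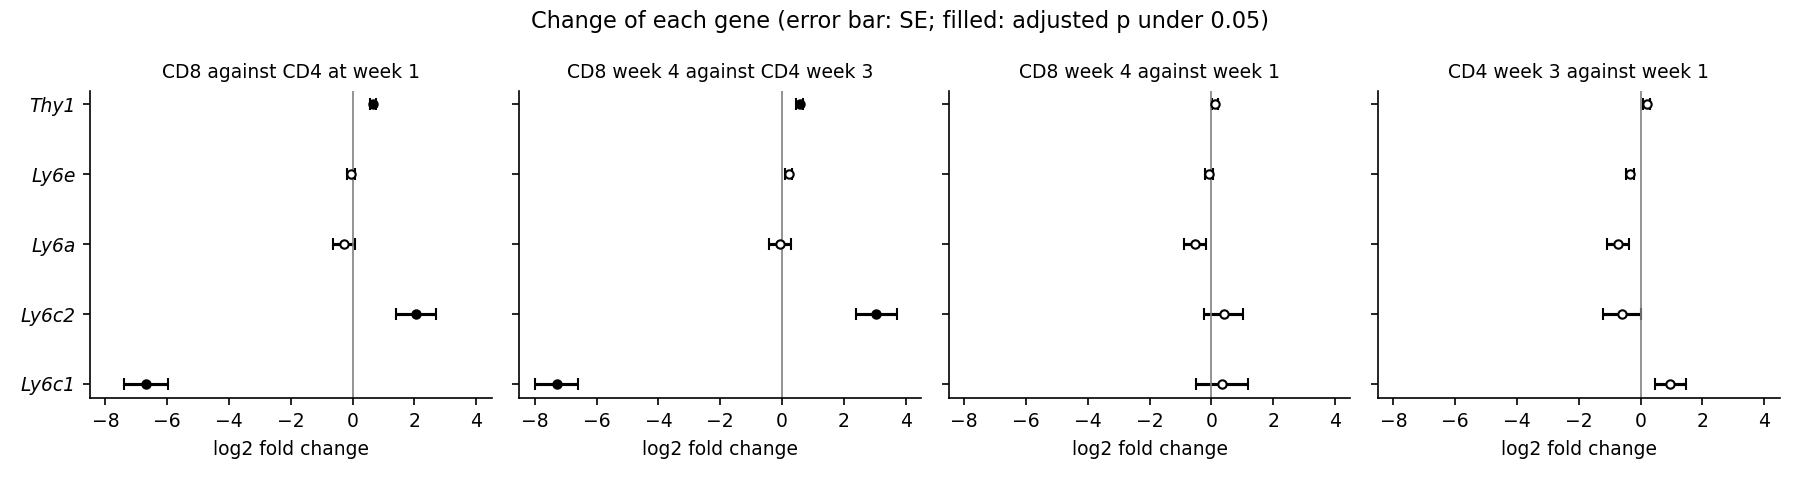
Log2 fold change of each gene in 4 comparisons, with CD8 over CD4 or the long-term over the week 1 group, and error bars of 1 SE. Filled points have an adjusted p under 0.05. Thy1, Ly6c2 and Ly6c1 are filled in both comparisons of CD8 with CD4, and no point is filled in the comparisons over time.

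Week 4 was set against week 1 in CD8 cells to ask whether long culture changed the levels. With all 20 libraries in the fit 0 of the 5 genes passed, where 33.5% of all tested genes did. None had an unadjusted p under 0.05 either, and DESeq2 and limma-voom also called 0. Ly6a had a log2 fold change of -0.52 (SE 0.358, adjusted p = 0.276), Ly6c2 of 0.40 (SE 0.618, adjusted p = 0.651), Ly6c1 of 0.34 (SE 0.855, adjusted p = 0.784), Thy1 of 0.11 (SE 0.105, adjusted p = 0.434) and Ly6e of -0.08 (SE 0.12, adjusted p = 0.656).

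That fit shares each gene's spread with the CD4 libraries, which for Ly6a and Ly6c2 is wide. Ly6a stood at 360.6, 327.5, 355.5, 261.9 and 336.3 CPM in CD8 week 4 libraries, against 505.8, 519.5, 436.2, 444.6 and 449.6 CPM in CD8 week 1 libraries. Every week 4 library was below every week 1 library, which was so, in one direction or the other, for 20.8% of all genes. With only CD8 libraries fitted, the log2 fold change of Ly6a was -0.54 (adjusted p = 0.00208) and that of Ly6c2 was 0.38 (adjusted p = 0.0125), in a fit where 32.8% of 12402 genes passed. Ly6c1 did not pass the filter on low counts in that fit. Within the lower title range Ly6a had a log2 fold change of -0.50 (adjusted p = 0.0602), in a fit that called 517 of 12401 genes. Within the higher range it had one of -0.60 (adjusted p = 0.00906), in a fit that called 6386 of 12969 genes. The unadjusted edgeR p of Ly6a was similar in both, 0.00317 in the lower and 0.00261 in the higher range.

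Ly6c2 in the CD8 groups came close to separating: the lowest week 4 library, at 879.8 CPM, was just under the highest week 1 library, at 887.6 CPM. The coefficient of variation of Ly6c2 was 11.8% in CD8 week 4 and 8.89% in CD8 week 1 libraries, beside 102.9% for CD4 cells at week 3 and 96.09% at week 1. For Ly6a it was 12.05% in CD8 cells at week 4 and 8.18% at week 1, beside 30.42% in CD4 cells at week 3 and 77.99% at week 1. Ly6e stood at 890.1, 913.4, 863.4, 749 and 993.1 CPM in CD8 week 4 libraries, against 903.7, 834.5, 919.6, 970 and 1019 CPM in CD8 week 1 libraries, and these ranges overlapped.

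In CD4 cells week 3 was set against week 1. Here too 0 of 5 genes passed with edgeR, beside 16.5% of all tested genes, while 1 had an unadjusted p under 0.05, DESeq2 called 1 and limma-voom called 0. For all 5 the libraries overlapped, where 8.14% of all genes had no overlap. Ly6c1 had a log2 fold change of 0.96 (SE 0.497, adjusted p = 0.188), Ly6a of -0.74 (SE 0.359, adjusted p = 0.159), Ly6c2 of -0.60 (SE 0.621, adjusted p = 0.529), Ly6e of -0.34 (SE 0.12, adjusted p = 0.0594) and Thy1 of 0.19 (SE 0.105, adjusted p = 0.211).

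Ly6e stood at 790.5, 905.2, 738.6, 661.7 and 711.1 CPM in CD4 week 3 libraries, against 986.5, 1239, 1049, 786.4 and 757.1 CPM in CD4 week 1 libraries. Replicates 4 and 5 of week 1 lay within the week 3 range and the other 3 lay above it. With DESeq2, where 21.2% of all genes passed, Ly6e was called lower (log2 fold change -0.34, adjusted p = 0.0415). It also passed without CD4 week 3 replicate 2 (adjusted p = 0.0198), without CD4 week 1 replicate 4 (0.0321) or without CD4 week 1 replicate 5 (0.0289).

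Ly6a stood at 280, 498.3, 357.8, 221 and 352.5 CPM in CD4 week 3 libraries, against 500.9, 1295, 633.8, 192.3 and 231.2 CPM in CD4 week 1 libraries. Week 1 libraries spread far wider, with replicate 2 at the top and replicates 4 and 5 at the bottom. Leaving out CD4 week 1 replicate 2 moved the log2 fold change to -0.19 (adjusted p = 0.686), and leaving out CD4 week 1 replicate 4 moved it to -0.96 (adjusted p = 0.0471).

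CD4 week 1 replicate 2 was also the week 1 library with the most Ly6c1 and Ly6c2. Without it the log2 fold change of Ly6c1 at week 3 over week 1 was 1.68 (adjusted p = 0.0229) and that of Ly6c2 was 0.07 (adjusted p = 0.953). Other single libraries moved these values too. Without CD4 week 3 replicate 2 that of Ly6c2 was -1.41 (adjusted p = 0.0835), and without CD4 week 3 replicate 5 that of Ly6c1 was 0.44 (adjusted p = 0.567).

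Beside these values stands the level of 37 interferon-stimulated genes, summed per library, a list that holds none of the 5 genes. The sum was 3077, 4190, 3592, 3042 and 3276 CPM in CD4 week 3 libraries, against 6657, 16357, 5937, 2506 and 2494 CPM in CD4 week 1 libraries. In CD8 libraries it ran from 4240 to 5414 CPM at week 4 and from 4362 to 6411 CPM at week 1. The library with the highest sum, CD4 week 1 replicate 2, was the one with the most Ly6a and Ly6e of all 20, and replicates 4 and 5, with the lowest sums, had the least Ly6a and Ly6e of their group. Its part in the results was not tested.

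**Figure D4:**
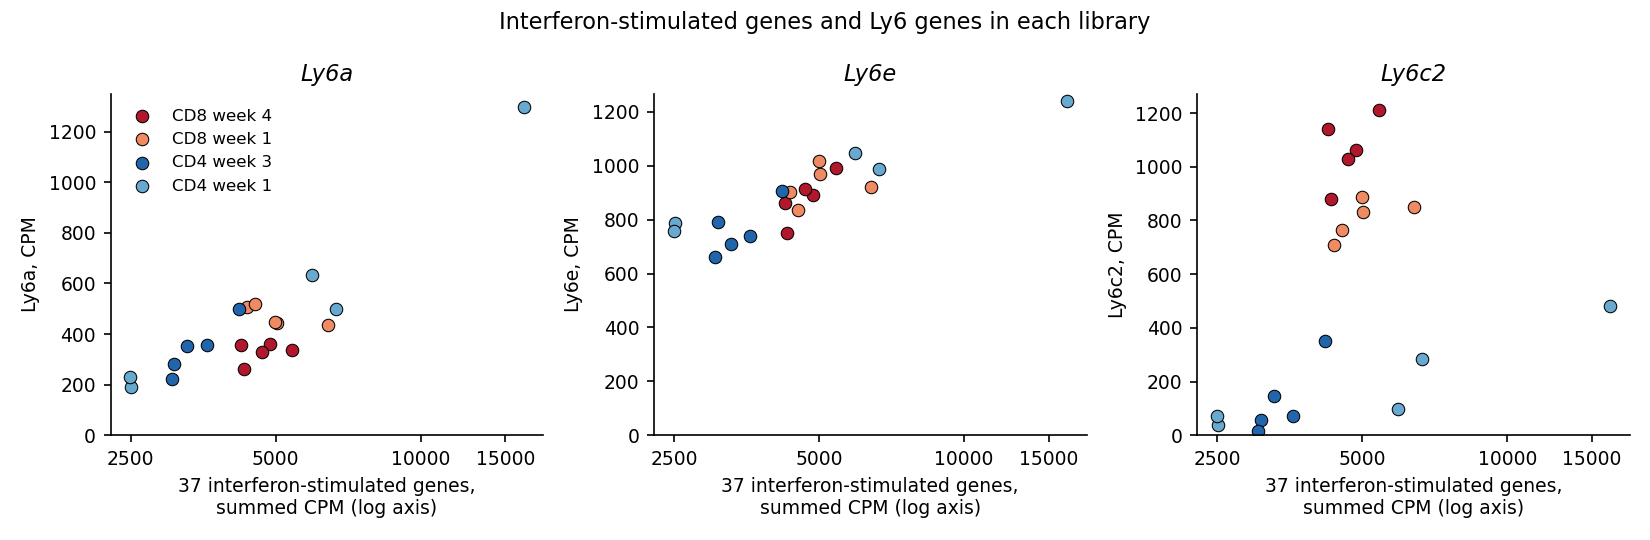
Ly6a, Ly6e and Ly6c2 in CPM against the summed CPM of 37 interferon-stimulated genes on a log axis, with 1 point per library and colours for the 4 groups. One CD4 week 1 library lies alone at 16357 CPM on the horizontal axis, with 1295 CPM of Ly6a and 1239 CPM of Ly6e.

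Single genes of that list gave few calls with edgeR. In CD4 cells the median log2 fold change at week 3 was -1.53, against 0.00854 over all tested genes. There 4 of 37 fell and 0 rose, beside 16.5% of all tested genes called. They were Zbp1, a sensor of nucleic acids (-1.67, adjusted p = 0.0304), Psmb9, an immunoproteasome subunit (-0.64, adjusted p = 0.0308), Isg15, a ubiquitin-like modifier (-3.66, adjusted p = 0.0326), and Stat2, which carries the interferon signal (-1.58, adjusted p = 0.0329). CD4 week 1 libraries spread widely, from 49.94 to 692.5 CPM for Zbp1, 1.21 to 286.5 for Isg15 and 63.2 to 697.1 for Stat2. At CD4 week 3 these genes ran from 65.18 to 92.41, 1.46 to 14.81 and 68.79 to 96.5 CPM. Psmb9 ran from 158.2 to 396 CPM at week 1 and 149.6 to 178.1 CPM at week 3, so all 4 overlapped. DESeq2 called 17 of the list in CD4 cells, beside 21.2% of all genes, and limma-voom 0, beside 2337 of 13290 genes. In CD8 cells 0 of 37 passed with edgeR, where 33.5% of all genes did. DESeq2 and limma-voom also called 0, beside 4770 and 4489 of 13290 genes. With each tool 1 had an unadjusted p under 0.05, and the edgeR median was -0.14 against 0.03 over all genes. Between the cell types 3 were lower in CD8 at week 1 (Ifi35, Ifi44 and Oas2), beside 38.1% of all genes called. In CD4 week 1 libraries Ifi44 ran from 0 to 249.6 CPM and Oas2 from 0.2015 to 333.9 CPM. After long-term culture 3 were higher in CD8 (Psmb8, Psmb9 and Tap1, of the antigen-processing machinery), beside 32.7% of all genes called.

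The changes over time in CD8 and CD4 cells were compared directly, with the test of their difference. With edgeR it called 0 of 5 genes, in a test that called 0.655% of all genes. None had an unadjusted p under 0.05, and DESeq2 and limma-voom called 0. The difference of log2 fold changes, CD8 minus CD4, was 0.99 for Ly6c2 (SE 0.876, adjusted p = 0.733), -0.61 for Ly6c1 (SE 1.01, adjusted p = 0.878), 0.26 for Ly6e (SE 0.17, adjusted p = 0.596), 0.22 for Ly6a (SE 0.505, adjusted p = 0.918) and -0.08 for Thy1 (SE 0.149, adjusted p = 0.896). With 1 library left out the difference ran from 0.33 to 1.79 for Ly6c2, the lowest without CD4 week 1 replicate 2 and the highest without CD4 week 3 replicate 2 (unadjusted p = 0.0359, adjusted p = 0.344). For Ly6c1 it ran from -1.33 without CD4 week 1 replicate 2 to -0.09 without CD4 week 3 replicate 5. With SEs near 1, sizeable differences for Ly6c1 and Ly6c2 were not detectable in these libraries.

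In order of mean level, Ly6c2 and Thy1 ran CD8 week 4, CD8 week 1 and then both CD4 groups, and for each gene the libraries separated only at the step between CD8 and CD4. Ly6c1 ran CD4 week 3, CD4 week 1, CD8 week 4 and CD8 week 1, again with a clear step between cell types only. For Ly6e, at 881.8 ± 88.63 CPM in CD8 week 4, 929.5 ± 69.88 CPM in CD8 week 1, 761.4 ± 92.88 CPM in CD4 week 3 and 963.6 ± 198.4 CPM in CD4 week 1 libraries (SD, n = 5 each), all neighbours in that order overlapped. So did all neighbours for Ly6a.

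Other genes of the Ly6 and urokinase receptor family were mostly silent. Of 37 listed, 34 were in the table and 5 passed the filter, namely Ly6k, Ly6g5b, Lynx1, Lypd6b and Plaur. Ly6g5b averaged 14.58 ± 3.75 CPM in CD8 week 4 libraries against 5.51 ± 3.07 CPM in CD4 week 3 libraries (log2 fold change 1.40, adjusted p = 0.00818), and it was also higher in CD8 cells at week 1 (1.88, adjusted p = 0.00109). Plaur, the urokinase receptor, averaged 1.74 ± 0.980 CPM at CD4 week 3 against 0.221 ± 0.170 CPM at CD4 week 1 (SD, n = 5 each). It was called higher at week 3 (log2 fold change 2.92, adjusted p = 0.023), beside 16.5% of all genes called. These levels are low, as 3 reads make 0.124 to 0.153 CPM in single CD4 week 1 libraries. The groups overlapped, with a lowest week 3 library at 0.352 CPM and a highest week 1 library at 0.415 CPM. Plaur was lower in CD8 week 4 than in CD4 week 3 cells (-2.58, adjusted p = 0.0191), beside 32.7% of all genes called. No other tested gene of this list was called in these 5 comparisons. Ly6g, the neutrophil antigen, had no count in CD8 week 4 libraries.

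Other GPI-anchored proteins of lymphocytes were read from a list of 22 genes, of which 14 were tested. In CD8 cells 3 rose and 4 fell at week 4, beside 33.5% of all genes called, with a median log2 fold change of -0.05 against 0.03 over all genes. Nt5e, which encodes CD73, the enzyme that makes adenosine from AMP, averaged 251.6 ± 106.1 CPM in CD8 week 4 and 65.11 ± 20.34 CPM in CD8 week 1 libraries (1.95, adjusted p = 0.000544). Gpc1, a heparan sulfate proteoglycan, rose (1.32, adjusted p = 7.8e-06), as did Art2b, a surface ADP-ribosyltransferase (1.73, adjusted p = 0.00409), and Sema7a, a semaphorin, fell (-3.59, adjusted p = 0.000563). In CD4 cells 1 rose and 4 fell of 14, beside 16.5% of all genes called, with a median of -0.35 against 0.00854 over all genes. Nt5e rose there too (1.47, adjusted p = 0.00835), while Izumo1r, which encodes folate receptor 4, fell to 11.45 ± 8.86 CPM in CD4 week 3 libraries, against 64.31 ± 25.7 CPM in CD4 week 1 libraries (-2.49, adjusted p = 0.00329), and Gpc1 fell (-0.55, adjusted p = 0.0136). The changes of Gpc1 differed between the cell types (1.87, adjusted p = 9.36e-05), the only call of edgeR for that difference in this list, where limma-voom called 1 and DESeq2 called 2.

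Between cell types, 4 of the 14 were higher and 3 lower in CD8 cells at week 1, beside 38.1% of all genes called, and 7 were higher and 4 lower after long-term culture, beside 32.7%. Cd160, a receptor of cytotoxic lymphocytes, averaged 86.26 ± 41.38 CPM in CD8 week 4 and 1.16 ± 0.898 CPM in CD4 week 3 libraries (6.22, adjusted p = 1.31e-08). At week 1 it averaged 53.35 ± 15.65 CPM in CD8 and 0.956 ± 0.195 CPM in CD4 libraries (5.79, adjusted p = 4.65e-08).

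All 32 listed genes that build, attach or remodel the GPI anchor were tested. In CD8 cells 6 rose and 5 fell at week 4, a share close to the 33.5% of all tested genes, with a median log2 fold change of 0.08 against 0.03 over all genes. Mppe1, which trims the anchor, rose (0.57, adjusted p = 0.000687), and Pigx, a subunit of a mannosyltransferase, fell (-0.35, adjusted p = 0.00204). In CD4 cells 1 rose and 0 fell, beside 16.5% of all genes called, the riser being the mannosyltransferase gene Pigm (0.46, adjusted p = 0.0258). Between the cell types 10 were higher and 7 lower in CD8 at week 1, beside 38.1% of all genes called, and 7 higher and 6 lower after long-term culture, beside 32.7%.

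For each of the 5 genes the most similar profiles were taken by Pearson correlation of log2 CPM over all 20 libraries, among 8581 genes of at least 10 CPM on average. The libraries share group and depth, so these are descriptions. Ly6a ran most closely with Bst2 (r = 0.88), Rabepk (0.88) and Isg20 (0.86), of which Bst2 and Isg20 are interferon-inducible. Ly6e ran with Sh3bp2 (0.86), Eif2ak2 (0.85) and Isg20 (0.84). Ly6c2 ran with Slamf7, Epsti1 and Pik3ap1 (0.95 each), and Ly6c1 with Faah, St8sia6 and Sgms1 (0.96 each), genes higher on average in CD4 libraries. Thy1 ran with Ermp1 (0.94), Golim4 (0.91) and Babam2 (0.90).

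Markers of other cells that can carry these proteins were then read. All 5 neutrophil markers together came to at most 0.0532 CPM in any library. Lyz2, the lysozyme of monocytes and macrophages, had no count in any group, and the 7 monocyte and macrophage markers summed to 0.762 to 1.27 CPM in CD8 week 4, 0.905 to 1.9 CPM in CD8 week 1, 0.134 to 0.438 CPM in CD4 week 3 and, with the widest range, 0.171 to 24.63 CPM in CD4 week 1 libraries. In CD4 week 1 libraries Mpeg1 had the highest mean of these markers, 5.88 CPM, and its part in the Ly6 values was not tested. B cell markers summed to at most 13.08 CPM, in CD8 week 1 libraries. Endothelial markers, led by Pecam1, summed to 62.7 to 89.64 CPM in CD8 week 4 and 107.4 to 190.5 CPM in CD4 week 3 libraries, while the defining gene Cldn5 had no count in any group. The 5 NK cell markers, in a lineage that can carry Ly-6C, summed to 193.9 to 308.8 CPM in CD8 week 4 and 162.3 to 349.4 CPM in CD8 week 1 libraries, against 0.708 to 9.63 CPM in CD4 week 3 and 0.342 to 22.11 CPM in CD4 week 1 libraries, and so were higher in the same groups as Ly6c2. Most of that sum was Eomes, a transcription factor that memory CD8 T cells also express, at 233.3 ± 36.73 CPM in CD8 week 4 and 190.8 ± 84.86 CPM in CD8 week 1 libraries (SD, n = 5 each). Of the other NK cell markers, Klrb1c averaged 23.36 ± 20.78 CPM in CD8 week 4 and 11.3 ± 8.03 CPM in CD8 week 1 libraries. In CD4 libraries Klrb1c averaged 0.460 ± 0.224 CPM at week 3 and 0.0640 ± 0.0720 CPM at week 1. The NK receptor gene Ncr1 averaged 1.69 ± 1.59 CPM in CD8 week 4 and 0.200 ± 0.155 CPM in CD8 week 1 libraries. Klra8 averaged at most 0.143 CPM and Klra4 at most 0.0179 CPM in any group. Kit, a marker of blood progenitors, which carry Sca-1, averaged 21.54 ± 10.72 CPM in CD8 week 4, 34.54 ± 28.23 CPM in CD8 week 1, 21.21 ± 14.14 CPM in CD4 week 3 and 1.13 ± 1.38 CPM in CD4 week 1 libraries. The part of these markers in the Ly6 values was not tested.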

How the data were processed

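Polyadenylated RNA of 20 libraries was sequenced from strand-marking libraries (per the labels' protocols). The authors deposited a raw count of reads for each gene and library. They aligned with STAR to mm10 (per the submitters' processing notes) and counted with featureCounts 1.6.3, reverse strand setting, on GENCODE M12 for GRCm38 (per the file headers). Reads with several matches were left uncounted, since no option for them was set, which lowers Ly6c1 and Ly6c2 by an unknown amount. The deposited table also gives exon length per gene. Genes were named from GENCODE M21.

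The count test was edgeR 4.0.16 (R 4.3.3) with filterByExpr, TMM factors and quasi-likelihood F tests on 4 group means. Calls needed a Benjamini-Hochberg adjusted p below 0.05 across the 13290 genes tested. CPM use TMM-scaled totals, except summed marker levels, which use library totals. Shares of Ly6c2 were compared with two-sided exact permutation tests (scipy 1.17.1). Alternatives were DESeq2 1.42.0, limma-voom (limma 3.58.1), other size factors and filters, one cell type alone, single title ranges, and each library left out. Replicate libraries differed by more than sampling noise (chi-square per degree of freedom 5.9 to 141.3 over 40 pairs). Only the edgeR test of CD8 week 4 against week 1 was checked on simulated data. That simulation gave each gene the same spread in all groups, unlike Ly6a and Ly6c2, which scattered more in CD4 libraries. Genes named beyond the 5 were set by rule: per list and comparison up to 4 called genes with the smallest adjusted p, and per gene the 3 most correlated, from which the text gives examples. The 5 genes and the lists were chosen with earlier results of these data known. Exact intervals cover counting error only.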

Additional observations from a re-analysis of the deposited data

Results flagged for a closer look

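CD4 week 3 replicate 5 had 152.1 CPM of Ly6c1, against 40.34 to 59.25 CPM in the other 4 libraries of its group. Its gap to the nearest library took 0.831 of the group's range, above Dixon's critical value of 0.71 for 5 samples. Chance flags about 1 in 20 groups, and 24 groups of values were checked. The same library had 145 CPM of Ly6c2, the second highest of its group, behind replicate 2 at 350.6 CPM.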

How the results depend on the processing

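Between CD8 and CD4 cells the number of called genes stayed within 1.5 times of 3 under all alternatives run. Over time, 2 genes were called in CD8 cells with only CD8 libraries, beside 32.8% of all genes. In the higher title range alone 1 was called, beside 6386 of 12969 genes. In CD4 cells 1 was called with DESeq2, beside 21.2% of all genes, and 0 to 2 with a library left out. The fits with a library left out called from 1090 of 13441 to 3650 of 13448 genes over time in CD4 cells. Signs turned for values that missed the threshold. Thy1 over time in CD8 cells gave -0.060 in the higher title range. With limma-voom Ly6a gave -0.081 for the difference of changes and 0.066 at week 1. With the lower title range of CD8, a choice made after seeing the data, Thy1 gave 0.015 for the difference of changes and Ly6a 0.026 in the long-term contrast, and with the higher range Ly6e gave 0.049 at week 1. With each library left out, Ly6c2 over time in CD4 cells ran from -1.41 to 0.067, the difference of changes from -0.33 to 0.44 for Ly6a and from -0.15 to 0.00065 for Thy1, the week 1 contrast from -0.50 to 0.27 for Ly6a and from -0.13 to 0.054 for Ly6e, and the long-term contrast of Ly6a from -0.18 to 0.11.

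The difference in Ly6c2 share between CD4 groups was -1.95 as a log2 ratio (adjusted p = 0.0635) and ran from -34.59 to -20.32 points with a library left out. In CD8 cells the share difference ran from -0.0077 to 0.00432 points with a library left out and was 0.00215 in the higher range. Against CD4 cells it was 17.61 points (week 1) and 44.21 points (long-term culture) with the lower CD8 range (adjusted p = 0.0536), and 17.6 and 44.2 points with the higher range (adjusted p = 0.143), where exact tests of 3 or 2 against 5 libraries cannot go below p of 0.0357 and 0.0952. The cause of these shifts was not tested. No paired fit was run, because the labels give no replicate number shared between groups and do not say that neighbouring title numbers mark a shared animal or culture. With 2 to 15 reads per CD8 library, changes of Ly6c1 within CD8 cells were not measurable at this depth.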
